A study of Mus musculus with 6 samples.

Results

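Small leucine-rich proteoglycans (SLRPs) are a family of secreted matrix proteins, and 9 of their genes were followed in mouse embryonic fibroblasts (MEFs) treated with TNFα. The genes were Podn, Dcn, Bgn, Lum, Fmod, Ogn, Omd, Aspn and Prelp, which are 9 of the 20275 coding genes of the deposited expression table. Each was found by its symbol, and where a gene had several RefSeq transcripts the entry with the highest mean over all columns was used. Podn was chosen by its measured log2 ratio at 6 hr, which was among the lowest in these libraries, and the other 8 are its relatives. The log2 ratios at all 3 times share the untreated library, so they are given as descriptions with no test.

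The cells were primary wildtype MEFs of the strain C57BL/6x 129, taken from littermate embryos of 13.5 days and passaged 4 times. Poly-A RNA was sequenced from untreated cells and after 1.5, 6 and 24 hr of TNFα at 20 ng/mL, with 1 library at each time. The histone mark H3K4me3, which lies at the starts of active genes, was profiled in untreated MEFs with 1 ChIP library and 1 input library. In the labels, the extraction field of the 24 hr sample describes ChIP, while the other fields describe RNA, and the sample was used as RNA. There was no replicate, so no p-value is given and differences compare libraries, not conditions.

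An SLRP has a core of leucine-rich repeats, and many members carry chondroitin, dermatan or keratan sulfate chains. Members bind collagen fibrils and help set fibril width and spacing, and several also bind growth factors such as TGFβ. Fibroblasts are a main source of them in skin, tendon and other connective tissue. TNFα is a cytokine that activates the transcription factor NF-κB. Nfkbia, which encodes the NF-κB inhibitor IκBα, was at 3.73 RPKM untreated and at 84.2, 31.0 and 67.4 RPKM at 1.5, 6 and 24 hr. RPKM is the read count scaled to transcript length and to the mapped reads of the library, so levels of different genes are compared per length.

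The promoters of Podn, Aspn, Ogn and Prelp are shown to compare starts of genes that took different courses after TNFα. Podn, Aspn and Ogn had an H3K4me3 peak at the start and Prelp did not. The sequences are from RefSeq on GRCm38.p6, run from 250 bases before to 50 after the start, and are given 5′ to 3′ on the strand of the gene. Capitals mark CG dinucleotides, the sites of CpG methylation.
Podn, chr4:108031905-108032204, minus strand: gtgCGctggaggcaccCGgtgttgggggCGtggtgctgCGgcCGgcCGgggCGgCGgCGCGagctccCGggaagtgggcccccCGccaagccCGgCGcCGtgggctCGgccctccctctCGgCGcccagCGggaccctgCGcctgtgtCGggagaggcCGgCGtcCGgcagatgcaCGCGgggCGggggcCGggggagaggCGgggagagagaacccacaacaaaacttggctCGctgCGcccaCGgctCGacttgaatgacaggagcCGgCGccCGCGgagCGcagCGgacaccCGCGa
Aspn, chr13:49544193-49544492, plus strand: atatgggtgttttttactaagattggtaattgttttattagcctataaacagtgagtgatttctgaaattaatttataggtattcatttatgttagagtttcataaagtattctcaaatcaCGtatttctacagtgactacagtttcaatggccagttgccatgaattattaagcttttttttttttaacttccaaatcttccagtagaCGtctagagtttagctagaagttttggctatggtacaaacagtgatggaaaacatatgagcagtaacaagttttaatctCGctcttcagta
Ogn, chr13:49607765-49608064, plus strand: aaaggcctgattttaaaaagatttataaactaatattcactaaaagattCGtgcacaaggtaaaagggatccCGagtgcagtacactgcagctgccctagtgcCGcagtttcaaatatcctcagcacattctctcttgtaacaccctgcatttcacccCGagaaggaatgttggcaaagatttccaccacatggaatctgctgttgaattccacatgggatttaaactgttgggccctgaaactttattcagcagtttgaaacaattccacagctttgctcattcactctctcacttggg
Prelp, chr1:133921352-133921651, minus strand: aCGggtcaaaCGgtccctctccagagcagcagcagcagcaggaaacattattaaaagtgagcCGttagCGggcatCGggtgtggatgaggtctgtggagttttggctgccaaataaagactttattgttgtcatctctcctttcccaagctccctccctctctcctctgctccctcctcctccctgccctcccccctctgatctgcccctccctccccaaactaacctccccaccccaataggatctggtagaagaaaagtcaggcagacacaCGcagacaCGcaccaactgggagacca

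The promoter of Podn held 41 CG dinucleotides in 300 bases, more than 96.5% of the 32851 RefSeq promoters of the same length, whose median was 7. A further Podn start lies downstream of it, at chr4:108030937-108031236, and held 7. The Aspn promoter held 3 CG dinucleotides, that of Ogn 4 and that of Prelp 7. Of the promoters not shown, Bgn had 9, Fmod 3 and Omd 1. Thus the upstream Podn promoter stood apart from the others in CG content. Dcn and Lum are not listed in the table used.

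The letters TATAAA, the core of a TATA box, were found on each strand of the Aspn promoter and on each strand of the Ogn promoter, and in none of the other 5 matched genes. They are found on either strand of 13.6% of all promoters. In Aspn and Ogn the matches lie in the upstream part of the window, far from the start, and are not read as TATA boxes. The Ogn matches on the plus and minus strands overlap. The letters GGGCGG, a GC box, occurred 2 times in the upstream Podn promoter and 3 times on the minus strand of the Bgn promoter, and in 35.7% of all promoters. An AP-1 motif, TGANTCA, and the κB motif were in none of the 8 promoters of the 7 matched genes, and are held by 7.81% and 8.46% of all promoters. Both strands were searched, TGANTCA reads the same on either, and a GGGCGG also counts as a CG. Matches are descriptions of these windows and were not tied to binding.

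Before TNFα the family was dominated by biglycan. Bgn, whose protein carries chondroitin or dermatan sulfate chains and binds collagen, was at 434 RPKM in untreated MEFs, above 99.9% of coding genes, and made up 94.97% of the summed level of the 9 genes. Podn, which encodes the collagen-binding protein podocan, was next at 12.1 RPKM, and was 52.4% of the summed level of the other 8. Aspn, Dcn, Fmod and Ogn lay between 1.92 and 2.87 RPKM, Lum was at 0.863, Prelp at 0.387 and Omd at 0.0170 RPKM. The columns of Aspn and Dcn overlapped, so their order in untreated cells is not resolved. All other neighbours in this order were further apart than their own R1 and R2 columns, of which the table holds 2 for each library. What R1 and R2 hold is not stated in the sources used here, and they were not taken as replicates. The order therefore describes 1 untreated library only.

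Libraries differed in ways that touch every ratio below. Over the 6566 coding genes with an average RPKM above 1, the median log2 ratio to untreated was 0.45, -0.74 and 0.11 at 1.5, 6 and 24 hr. At 6 hr, 87.45% of these genes were below their untreated level, and the summed level of all 27794 deposited transcripts was 0.563 times untreated. A centred log2 ratio below means the value after this median is subtracted. The ratios also moved with GC content: the median of the genes with the lowest GC content was 1.39 at 1.5 hr and 1.00 at 24 hr, and that of the genes with the highest was -0.76 and -0.95. At 6 hr the same medians were -0.06 and -0.90. The part of GC content in the ratios was not tested. Since these are bulk RNA libraries, fewer cells of a type and less RNA per cell cannot be told apart.

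**Figure D1:**
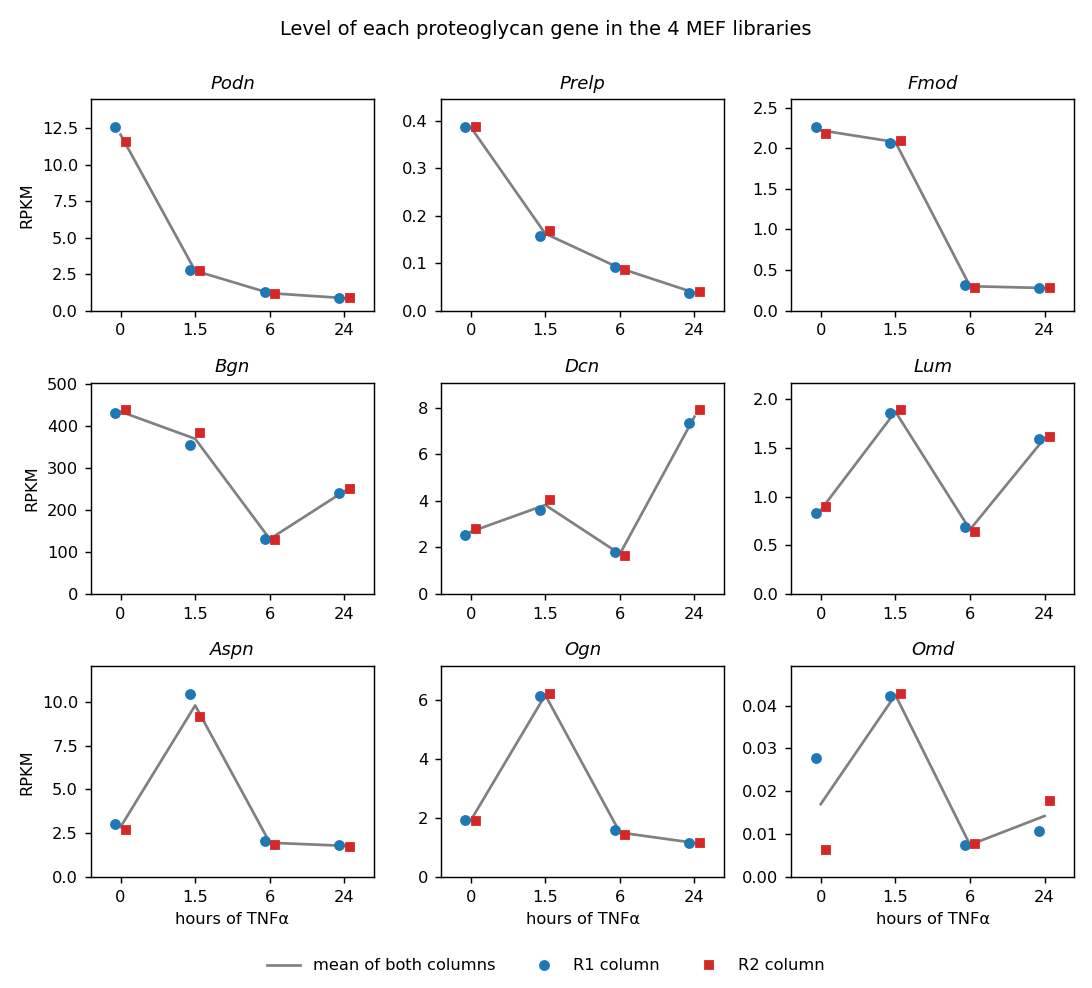
RPKM (y axis, linear, from 0, a scale for each gene) of the 9 proteoglycan genes at 0, 1.5, 6 and 24 hr of TNFα (x axis, not to scale in time). Circles and squares are the R1 and R2 columns and the line is their mean. Podn, Prelp and Fmod are lowest at 24 hr, Aspn and Ogn are highest at 1.5 hr, and Dcn is highest at 24 hr.

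Podocan was lower at every time. Podn stood at 12.6 and 11.5 RPKM in the R1 and R2 columns of the untreated library, then at 2.76 and 2.70 after 1.5 hr, 1.28 and 1.12 after 6 hr, and 0.866 and 0.845 after 24 hr. The untreated columns were far above all 6 treated columns, and each later library was lower than the previous on the deposited scale. The level was 4.42-fold, 10.1-fold and 14.1-fold lower at 1.5, 6 and 24 hr. In log2 these are -2.14, -3.33 and -3.82. After centring they were -2.60, -2.59 and -3.93, so the further step between 1.5 and 6 hr was not seen relative to the median of coding genes. Podn went from above 95.7% of all coding genes in level to above 64.8% at 24 hr.

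Few genes had a lower ratio than Podn. Of 6566 coding genes it was the 37th, the 2nd and the 5th from the lowest at 1.5, 6 and 24 hr. These ranks do not depend on how the libraries are scaled. The Podn transcript has 56.68% GC against a median of 52.91% for coding genes, and genes with the same GC content had medians of -0.16, -0.92 and -0.47. Podn was below these by 1.98, 2.42 and 3.35 in log2. Of the 321 other genes of its GC bin, 2 had a lower ratio at 1.5 hr, and 0 at 6 and at 24 hr. Podn was chosen for its low ratio at 6 hr, so its rank and its place in the GC bin at 6 hr follow from the choice. The ratios at 1.5 and 24 hr share the untreated library with it, so none of these ranks is a test. The Podn values rested on about 3454, 815, 300.3 and 288.3 reads per column, and the exact 95% counting interval of the log2 ratio at 24 hr was -4.00 to -3.65. The intervals cover counting error only.

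Prelp, a member with a heparin-binding end rich in proline and arginine, was also lower at every time, at a low level. It was at 0.387 RPKM untreated and 0.162, 0.0894 and 0.0377 at 1.5, 6 and 24 hr. The R1 and R2 columns differed by at most 7.26% at any time, and the 4 libraries did not overlap. The log2 ratios were -1.25, -2.11 and -3.36, and -1.71, -1.37 and -3.47 after centring. Prelp was counted by about 126, 54.9, 25.5 and 14.4 reads per column, and the counting interval at 24 hr ran from -4.32 to -2.61. Prelp has an average RPKM of 0.169, under the filter of 1. Its exons overlap those of Gm15851 on the other strand, and whether the counting used strand is not stated in the sources used here.

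Fibromodulin differed from podocan at the early time. Fmod, a keratan sulfate member that binds fibrillar collagen, was at 2.22 RPKM untreated and 2.08 at 1.5 hr, and then at 0.300 at 6 hr and 0.278 at 24 hr. The early library was 1.07-fold lower than the untreated library and the late libraries were 7.39-fold and 7.98-fold lower. The log2 ratios were -0.10, -2.89 and -3.00, with a counting interval at 1.5 hr of -0.27 to 0.07 that includes 0. Centred, they were -0.55, -2.14 and -3.11. Fmod was the 6th lowest of 6566 coding genes at 6 hr and the 14th lowest at 24 hr. In its GC bin 0 of 321 genes were lower at 6 hr and 1 at 24 hr.

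Bgn was the most abundant of the 9 in every library. It was at 434 RPKM untreated and 369, 131 and 245 at 1.5, 6 and 24 hr. Its log2 ratios of -0.23, -1.73 and -0.83 became -0.69, -0.99 and -0.94 after centring, so the 6 and 24 hr values were close once centred. Bgn was lower than the median of its GC bin by 0.79, 0.92 and 0.98. About 93640 to 24770 reads per column stood behind these values, so counting error was small beside the differences between libraries.

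**Figure D2:**
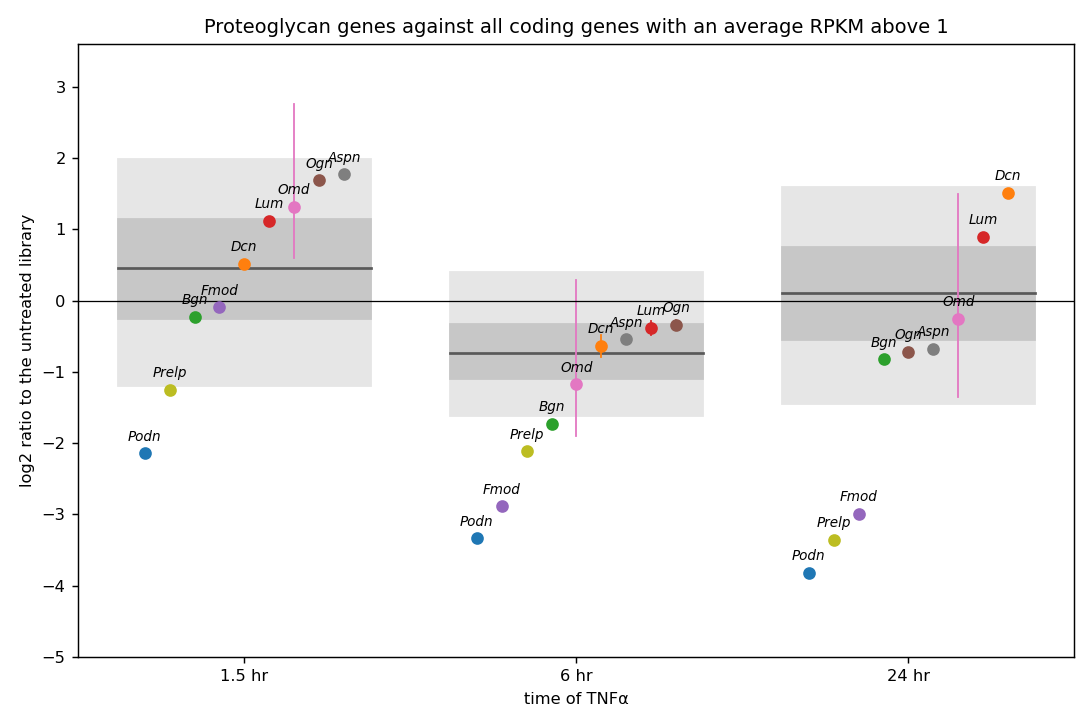
Log2 ratio to the untreated library (y axis) at 1.5, 6 and 24 hr of TNFα (x axis) for the 9 genes, with a vertical line between the R1 and R2 columns. Light and dark grey boxes run from the 5th to the 95th and from the 25th to the 75th percentile of 6566 coding genes and the grey line is their median. Podn lies below the light box at all 3 times, at -2.14, -3.33 and -3.82, and Aspn and Ogn lie within it.

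Decorin, lumican, asporin and osteoglycin were not lower at 1.5 hr. Aspn, whose protein has a run of aspartate residues and binds TGFβ, was at 2.87 RPKM untreated and 9.79, 1.97 and 1.79 at 1.5, 6 and 24 hr. Its columns at 1.5 hr, 10.5 and 9.12 RPKM, were above all its other columns. The log2 ratios were 1.77, -0.54 and -0.68. Ogn, which encodes osteoglycin, also called mimecan, was at 1.92, 6.17, 1.52 and 1.16 RPKM, with log2 ratios of 1.69, -0.34 and -0.72. At 6 hr the centred values of Aspn and Ogn were 0.20 and 0.40, so their direction at 6 hr flips with the scaling.

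The transcripts of these genes are rich in A and T. Aspn has 34.44% GC and Ogn 36.3%, and genes in their GC bin had a median of 1.39 at 1.5 hr. Against that median Aspn was higher by 0.38 and Ogn by 0.30, and 72.0% and 66.8% of the bin lay below them. At 24 hr, where the bin had a median of 1.00, Aspn was lower by 1.68 and Ogn by 1.72, with 3.42% and 2.80% of the bin below them. Thus, beside genes of like GC content, the early difference was small and the later one large. The part of GC content in the 1.5 hr values of Aspn and Ogn was not tested.

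Dcn and Lum were the members with higher levels at 24 hr. Dcn, whose protein carries a single chondroitin or dermatan sulfate chain and binds collagen and TGFβ, was at 2.67 RPKM untreated and 3.83, 1.72 and 7.62 at 1.5, 6 and 24 hr. Both columns at 24 hr, 7.35 and 7.89 RPKM, were above all others. The log2 ratios were 0.52, -0.64 and 1.51, and the 24 hr value was 1.40 centred. Relative to the median of its GC bin Dcn was lower by 0.87 at 1.5 hr, where its direction flips, and by 0.58 at 6 hr, and higher by 0.51 at 24 hr. Lum, which encodes the keratan sulfate member lumican, was at 0.863, 1.87, 0.661 and 1.60 RPKM. Its log2 ratios of 1.12, -0.38 and 0.89 were -0.27, -0.33 and -0.11 relative to its GC bin, so its direction at 1.5 and 24 hr flips with that correction. The centred values at 6 hr were 0.10 for Dcn and 0.36 for Lum, above 0 as for Aspn and Ogn.

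Omd, which encodes osteomodulin, a keratan sulfate protein of bone, was hardly detected. It was at 0.0170 RPKM untreated and 0.0425, 0.00755 and 0.0143 at 1.5, 6 and 24 hr, from about 2.68, 6.99, 1.05 and 2.66 reads per column. The R1 and R2 columns of the untreated library were 0.0278 and 0.00630 RPKM, and the counting interval at 1.5 hr ran from -0.97 to 3.75. No direction can be read for Omd at this depth.

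**Figure D3:**
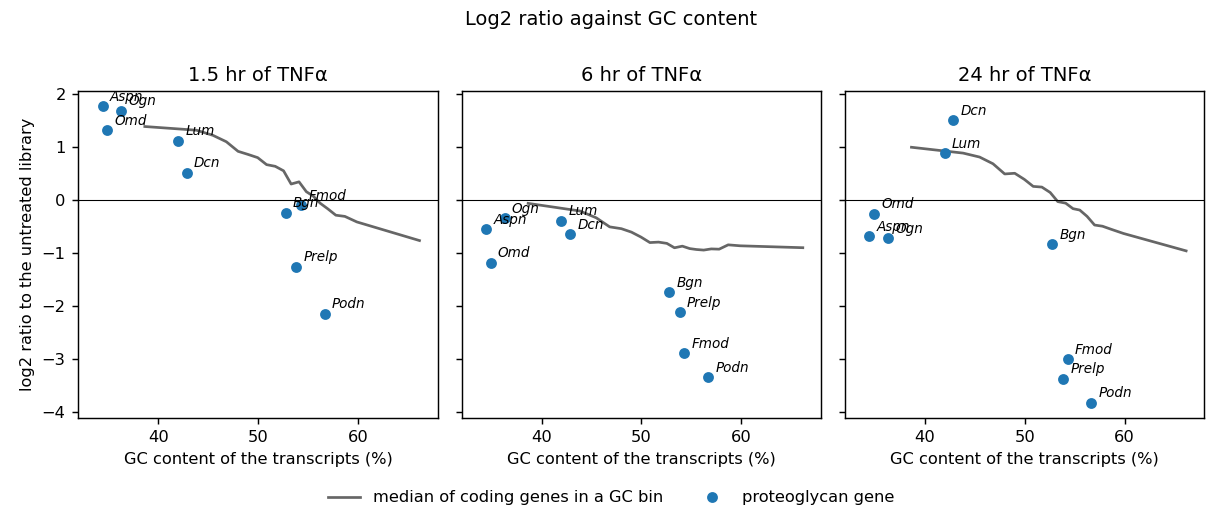
Log2 ratio to the untreated library (y axis) against GC content of the transcripts in percent (x axis) for the 9 genes (points), with the median of coding genes in 20 bins of GC content (line), at each time of TNFα. Podn, Fmod and Prelp lie far below the line at 24 hr, while Aspn, Ogn, Omd and Lum lie near it at 1.5 hr.

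Counted together, the 9 genes were mixed in direction at 1.5 and 24 hr, and all 9 were below untreated at 6 hr, as most coding genes were. The shares beside the counts are of the 6566 coding genes with an average RPKM above 1. At 1.5 hr, 2 of 9 were at least 2-fold lower (Podn and Prelp), against 7.83%. At least 2-fold higher were 4 (Lum, Ogn, Omd and Aspn), against 29.9%. In both columns 2 were lower, against 7.20%, and 3 were higher, against 28.3%. At 6 hr, 5 were lower (Podn, Bgn, Fmod, Omd and Prelp), against 31.6%, and 0 were higher, against 1.74%. In both columns 4 were lower, against 28.3%, and 0 higher, against 1.51%. At 24 hr, 3 were lower (Podn, Fmod and Prelp), against 12.7%, and 1 was higher (Dcn), against 16.8%. The same genes were counted with both columns at 24 hr, against 11.8% and 15.5%. Relative to GC bins the counts of lower members were 2, 4 and 6 at the 3 times, and those of higher members were 0, 0 and 0. The share of coding genes past 2-fold relative to GC bins was not counted, so these counts have no share beside them. The counts at 6 and 24 hr include Omd, at -1.12 and -1.26, for which no direction can be read at its depth. Omd and Prelp did not pass the filter of an average RPKM above 1 and so are outside the genes of the shares. The other 7 passed. Since Podn was chosen for its ratio, nothing is read from these counts or shares.

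The spread among the 9 was wide. The median log2 ratio of the 9 was 0.52, -1.17 and -0.72 at 1.5, 6 and 24 hr, beside 0.45, -0.74 and 0.11 for coding genes. The distance between the lowest and the highest member was 3.92, 2.99 and 5.33 in log2, and the interquartile range of coding genes was 1.40, 0.76 and 1.31. The makeup of the family shifted as a result. Among the 8 genes other than Bgn, Podn made up 52.4% of the summed level untreated and 10.2%, 16.0% and 6.40% at 1.5, 6 and 24 hr. The most abundant of the 8 was Aspn at 1.5 hr, with 36.7%, and at 6 hr, with 26.4%, and Dcn at 24 hr, with 57.0%. Shares within a library do not depend on its scaling, but they are open to the movement of ratios with GC content. At 1.5 hr the median log2 ratio was -0.16 in the GC bin of Podn and 1.39 in that of Aspn. At 24 hr it was -0.47 in the bin of Podn and 1.00 in that of Dcn. The part of GC content in these shares was not tested.

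Neighbouring SLRP genes had like courses in some clusters. Aspn, Omd and Ogn lie next to each other on chromosome 13 (mm9), on the plus strand inside Cenpp, a gene of the other strand whose exons they do not overlap. Aspn and Ogn, 40.51 kb apart with Omd between them, differed by a Euclidean distance of 0.22 over the 3 log2 ratios, the smallest of all pairs among the 9. Dcn and Lum lie 47.36 kb apart on chromosome 10 and differed by 0.90. Prelp and Fmod lie 115.8 kb apart on chromosome 1 and differed by 1.44, mainly at 1.5 hr. Prelp was also the member closest to Podn, which is on chromosome 4, at a distance of 1.58. Lum and Omd, on different chromosomes, differed by 1.41, though Omd was hardly detected. Neighbours were also alike in GC content, at 34.44% for Aspn and 36.3% for Ogn, and 42.85% for Dcn and 41.98% for Lum. Prelp had 53.83% and Fmod 54.3%. The ratios moved with GC content, and the part of position or of GC content in these distances was not tested. These distances describe 4 libraries that the pairs share.

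Among 6565 other coding genes, the 5 nearest to Podn by this distance were Eln (1.02), Mif4gd (1.08), A430110N23Rik (1.42), Apoc2 (1.56) and Dhrs3 (1.56). Eln, which encodes elastin, was at 7.67, 1.89, 0.741 and 0.270 RPKM at 0, 1.5, 6 and 24 hr. Mif4gd was at 6.90, 1.08, 0.767 and 0.932 RPKM. Both were lower in every treated library, and unlike Podn, Mif4gd was not lowest at 24 hr.

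H3K4me3 was measured in untreated cells and was not used to choose the genes. A peak of the deposited list lay within 1 kb of an annotated start in 5 of the 9 genes, and in 54.4% of 19720 coding genes. Among 6082 coding genes with an untreated RPKM above 1 the share was 91.5%. The genes with a peak were Podn, Dcn, Bgn, Ogn and Aspn, and those without were Lum, Fmod, Omd and Prelp. All 11157 listed peaks have a fold enrichment over input of at least 20, so a weaker peak would not be listed.

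The widest of the 5 peaks was at Bgn and the next at Podn. Bgn, at chrX:70728941-70741272 (mm9, plus strand), had a peak of 8997 bp at chrX:70727670-70736666 with 1628 tags and a 49.22-fold enrichment, longer than 98.8% of listed peaks. Podn, at chr4:107687396-107704942 on the minus strand, had a peak of 4590 bp at chr4:107701739-107706328, which covered its outermost start. It held 840 tags, and its enrichment of 21.05-fold was close to the lower limit of the list, where only 1.83% of peaks were lower. The Podn peak was longer than 81.4% of listed peaks.

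The peaks of Aspn and Ogn were alike in size. Aspn, at chr13:49639812-49662926, had a peak of 4285 bp with 457 tags and a 35.67-fold enrichment, and Ogn, at chr13:49703440-49719869, a peak of 3741 bp with 404 tags and a 41.56-fold enrichment. Dcn, at chr10:96942245-96980777, had the smallest, with 2168 bp, 151 tags and a 28.84-fold enrichment. A median listed peak had 1049 tags and a 45.45-fold enrichment, and of the 5 only that of Bgn exceeded both.

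Most coding genes at the levels of Fmod, Lum and Prelp had a peak, but these genes had none listed. Fmod was expressed at 2.22 RPKM untreated, and 90.8% of the 3551 coding genes within 2-fold of that level had a peak, but the nearest listed peak was 35991 bp from a Fmod start. Lum, at chr10:97028135-97035337, was 84456 bp from the nearest peak, which is that of Dcn, and 85.9% of the 4000 genes of like level had a peak. Prelp was 119453 bp from a peak, against a share of 78.1% of 3625 genes with one. Omd was 24690 bp from a peak, which is that of Ogn, and of 1359 genes at its level 16.8% had a peak. Fmod and Prelp, both without a listed peak, and Podn, with one, were the 3 lowest members at 24 hr. The Podn peak, at 21.05-fold, was the least enriched of the members' peaks and close to the list's lower limit of 20. Whether a peak goes with a member's course was not tested.

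**Figure D4:**
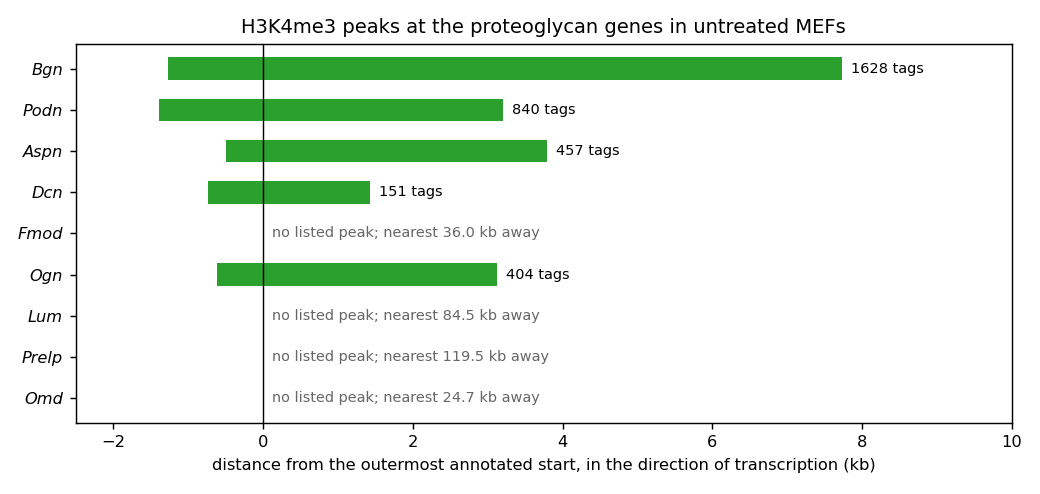
Listed H3K4me3 peaks of untreated MEFs (bars) by distance in kb from the outermost annotated start of each gene, in the direction of transcription (x axis), for the 9 genes in order of untreated level (y axis). Tag counts are beside the bars, from 151 at Dcn to 1628 at Bgn, and 4 genes have no listed peak.

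The other genes of the pathway are given from lists of known roles, with counts of at least 2-fold in both columns. Of 9 further SLRP genes only Podnl1 and Tsku had an average RPKM above 1. Podnl1, the closest relative of podocan, was at 2.57 RPKM untreated and 1.30, 2.35 and 1.93 RPKM later, with a lowest log2 ratio of -0.98, so it did not share the course of Podn. Tsku, which encodes tsukushi, was at 5.11 and 11.6 RPKM at 0 and 1.5 hr, a call that 28.3% of coding genes share, and no further call was made in this list.

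Of 27 enzymes that build chondroitin, dermatan or keratan sulfate chains, 11 passed the filter. At 1.5, 6 and 24 hr, 0, 5 and 1 of these were lower, against 7.20%, 28.3% and 11.8% of coding genes, and 3, 0 and 1 higher, against 28.3%, 1.51% and 15.5%. The highest log2 ratios were 1.86 for Fam20b, a kinase of the linker sugar, and 1.65 for Dse, which turns chondroitin into dermatan sulfate, both at 1.5 hr. The lowest were -1.87 for Chpf, a chondroitin polymerising factor, and -1.33 for the sulfotransferase gene Chst12, both at 6 hr. The 3 of 11 higher at 1.5 hr are close to the 28.3% of coding genes.

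Of 24 other proteoglycan core proteins, 12 passed the filter, with 2, 4 and 4 lower and 5, 1 and 1 higher at the 3 times. Among coding genes 7.20%, 28.3% and 11.8% were lower and 28.3%, 1.51% and 15.5% higher. Srgn, which encodes the granule proteoglycan serglycin, was highest with a log2 ratio of 2.88 at 1.5 hr, from 0.302 to 2.22 RPKM, and the cell surface proteoglycan gene Sdc2 was next at 1.52. Hspg2, which encodes perlecan of basement membranes, was lowest at -2.04 at 24 hr, and Gpc2, a glypican gene, was at -1.95 at 1.5 hr.

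The collagens that SLRPs bind were lower at 24 hr in part. Of 11 fibrillar collagen genes 8 passed the filter, with 1, 2 and 4 lower and 0, 1 and 0 higher, and a median log2 ratio of -1.03 at 24 hr beside 0.11 for coding genes. At 1.5, 6 and 24 hr 7.20%, 28.3% and 11.8% of coding genes were lower, and 28.3%, 1.51% and 15.5% higher. The 2 of 8 lower at 6 hr are near the share of coding genes. Col1a1, a chain of type I collagen, went from 514 to 142 RPKM at 24 hr, a log2 ratio of -1.85, and Col27a1 had a ratio of -2.18. Col5a3 was the exception, with a ratio of 1.42 at 6 hr, and Col5a2 was at 0.42 at 1.5 hr.

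Of 11 ligands and receptors that bind SLRPs 7 passed the filter, with 0, 3 and 2 lower and 0 higher at any time, against 7.20%, 28.3% and 11.8% lower and 28.3%, 1.51% and 15.5% higher among coding genes. Tgfb3 had a log2 ratio of -2.08 and Tgfb2 of -1.49 at 6 hr, and the highest were Wisp1 at 0.76 and Egfr at 0.75 at 1.5 hr. Of 10 proteases that process or cleave SLRPs 6 passed, with 0, 1 and 2 lower and 2, 2 and 2 higher, against the same shares. The matrix metalloprotease genes Mmp3 and Mmp13 had ratios of 3.58 and 3.54 at 24 hr, from 2.59 to 30.9 RPKM and from 0.655 to 7.64 RPKM. Mmp2 was at -1.73 at 6 hr and Bmp1, which trims the propeptides of procollagen and biglycan, at -1.34 at 24 hr.

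Markers of the labelled cell type were present. Of 9 fibroblast markers 8 had an average RPKM above 1, and their summed level was 1070, 1062, 510.1 and 643.4 RPKM at 0, 1.5, 6 and 24 hr. Of 6 leukocyte markers only Cd68 was above 1 RPKM, Cd3e was at 0 in every library, and the summed level was 8.004, 11.6, 2.85 and 4.77 RPKM. Of 3 tendon markers only Scx was above 1, and their sum was 2.29, 2.87, 1.05 and 1.28 RPKM. Markers of endothelial, epithelial, osteoblast and skeletal muscle cells summed to at most 0.0356, 0.588, 0.170 and 0.0397 RPKM, and most of the epithelial sum was Krt18, at 0.479 RPKM untreated and 0.535, 0.229 and 0.257 RPKM later. The 5 chondrocyte markers summed to 0.384 RPKM untreated and to 0.0995, 0.147 and 0.0394 RPKM later, and so were lower in every treated library, as Podn was. In untreated cells most of that sum was Comp, which was at 0.243, 0.0244, 0.0682 and 0.0108 RPKM at the 4 times. Col2a1 was at 0.118, 0.0572, 0.0791 and 0.0260 RPKM, above Comp in every treated library. Acan, Col9a1 and Matn1 were at most at 0.0152, 0.00707 and 0.00275 RPKM. The fibroblast, tendon, leukocyte and epithelial sums were lower at 6 and 24 hr than untreated, as Podn was. At 6 hr 87.45% of coding genes with an average RPKM above 1 were also below untreated. At 1.5 hr the fibroblast sum was near its untreated level, but its members moved in both directions. Col1a1 went from 514 to 278 RPKM, and Vim from 60.3 to 202 RPKM. The tendon, leukocyte and epithelial sums were above their untreated levels at 1.5 hr, and Podn was already 4.42-fold lower. The part of any of these marker groups in the level of Podn was not tested.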

How the data were processed

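Poly-A RNA of MEFs was sequenced by the authors in 4 libraries, and H3K4me3 was profiled in 1 ChIP library beside 1 input library. The reads were mapped to mm9 with TopHat (RNA) and Bowtie (ChIP), per the study's methods and the submitters' processing notes. The authors deposited RPKM values for 27794 RefSeq transcripts, 25684 of them coding, in 2 columns (R1 and R2) per library, and the depth is not stated in the table. The columns carry NR numbers, which the study's list of sequencing depths ties to the times. The deposited RPKM values were divided by a single factor of 85.7, the median ratio to the RPKM that the study lists for 6314 of the same values. Ratios do not depend on it. Per the deposited peak list, which the authors made with MACS, a peak has a tag count, a score derived from its p-value, its fold enrichment over input, and the FDR as a percent. Peaks were called on the 1 ChIP library against input.

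A library's value was the mean of R1 and R2, with no pseudocount. Genes were called past 2-fold and read beside the share of coding genes with an average RPKM above 1. Within a row the deposited values are whole multiples of 1 sequenced base (tolerance 0.001). The most common smallest step was 41 bases, in 740 of 1403 low transcripts, so bases divided by 41 gave approximate reads per column and exact (Clopper-Pearson) 95% intervals for the ratio of 2 libraries. R1 and R2 may share fragments, so reads of a single column were used. Amplified reads are not independent molecules, and intervals cover counting error only. Positions, GC content (98.1% of genes matched) and starts came from the mm9 genome with GENCODE annotation, and promoters from RefSeq on GRCm38.p6, where 7 of the 9 genes were matched. No coordinates were converted.

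The 9 genes and all lists were chosen with earlier results of these data known. From each list the 2 highest and the 2 lowest genes at any time were named, among those with an average RPKM above 1 and the same direction in both columns, and the 5 genes nearest to Podn were named. The lists were further SLRPs, chain enzymes, other proteoglycans, fibrillar collagens, ligands and receptors, proteases, Nfkbia and cell markers. Alternatives were 3 other scalings of the libraries (the sum, the median of ratios over coding genes, and a trimmed mean of log ratios), centring within 20 bins of GC content, each column alone, 1 RPKM added, all rows of a gene, a filter on average RPKM, a 3-fold threshold, and other settings for the peaks. A value moved where it changed by more than the columns differ from their mean. The steps were tested on simulated data. Python 3.11.15, numpy 2.4.6, pandas 2.3.3, scipy 1.17.1 and matplotlib 3.10.9 were used.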

Additional observations from a re-analysis of the deposited data

Results flagged for a closer look

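In 4 genes both columns lay on opposite sides of the untreated level at different times, and none of these differences was tested. Dcn was lower at 6 hr and higher at 24 hr, with 2.15 between its log2 ratios. Lum was higher at 1.5 hr and lower at 6 hr, a difference of -1.50. Ogn was higher at 1.5 hr and lower later, with differences of -2.03 at 6 hr and -2.41 at 24 hr. Aspn showed the same order, with differences of -2.32 at 6 hr and -2.45 at 24 hr. At 6 hr the centred log2 ratios of all 4 were above 0, from 0.10 in Dcn to 0.40 in Ogn, so the opposite direction at that time was not seen after centring on the median of coding genes. After centring within GC bins all 4 were below 0 at 6 hr, Dcn was above 0 at 24 hr, and Ogn and Aspn were above 0 at 1.5 hr and below 0 at 24 hr, but Lum was below 0 at 1.5 hr too.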

How the results depend on the processing

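Of the 216 recomputed log2 ratios of the 9 genes, 106 stayed within the difference of the columns. In all, 18 changed sign: Dcn, Lum, Ogn and Aspn at 6 hr under each of the 3 scalings, Dcn and Lum at 1.5 hr, Lum at 24 hr and Omd at 1.5 hr under GC bins, and Omd at 6 and 24 hr in the R2 column. Of the 18, 3 were past 2-fold as deposited, namely Lum at 1.5 hr, -0.27, and Omd at 1.5 hr, -0.074, both after centring within GC bins, and Omd at 6 hr, 0.29, in the R2 column. Counts that changed by over 1.5 times were these. At 1.5 hr the count of lower members was 1 with 1 RPKM added, at a 3-fold threshold and among genes with an average RPKM above 1, and that of higher members was 2 under the median of ratios, the trimmed mean, 1 RPKM added and 3-fold, and 0 under GC bins. At 6 hr the count of lower members was 3 under each of the 3 scalings, with 1 RPKM added and under the filter. At 24 hr the count of lower members was 6 under GC bins, and that of higher members was 0 under GC bins and at 3-fold and 2 in the R2 column. The median log2 ratio of the 9 at 1.5 hr was 0.27 scaled to the sum, 0.065 under the median of ratios, 0.15 under the trimmed mean, -0.44 under GC bins and 0.036 with 1 RPKM added. At 6 hr it was -0.35, -0.43 and -0.44 under the 3 scalings, -0.38 with 1 RPKM added and -0.64 under the filter, and at 24 hr -1.68 under GC bins and -0.43 with 1 RPKM added. With peaks at or above the median fold enrichment, 1 gene kept a peak. The cause of these changes was not tested, other than that a filter or a stricter threshold leaves fewer genes. Podn stayed over 2-fold lower at all 3 times under every alternative for which its log2 ratio was recomputed, and with 1 RPKM added these were -1.81, -2.57 and -2.82. No paired analysis was possible because each time has 1 library. Depth limits Omd, with about 1.05 to 6.99 reads per column, and Prelp at 24 hr.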
